A study of Mus musculus with 2 samples.

Results

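Blood vascular endothelial nuclei are the nuclei of the cells that line arteries, capillaries and veins, here in visceral fat. They were chosen by their UMIs (unique molecular identifiers, each standing for 1 captured transcript). A member had at least 4 UMIs summed over the 9 endothelial genes Cdh5, Kdr, Cyyr1, Tie1, Egfl7, Mecom, Ptprb, Pecam1 and Flt1. It had at most 1 UMI over the lymphatic genes Prox1, Mmrn1 and Ccl21a, and fewer than 10 over the adipocyte genes Plin1, Cidec, Pde3b, Acsl1, Dgat2, Pnpla2, Adrb3 and Aqp7. It also had at most 1 UMI over Upk3b and Msln (mesothelium), Col3a1 (fibro-adipogenic progenitors, FAPs) and Cybb and Mpeg1 (macrophages). Of 15058 nuclei that passed the quality limits, 451 were members, 62 of 2833 in replicate 1 and 389 of 12225 in replicate 2. The 25 genes of this rule are described below with no test.

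The study took nuclei from the fat of female C57BL/6J mice, and both libraries used here are labelled VAT and an age of 2 months. Each library came from 1 mouse, so n = 2 mice in 1 group, and no conditions were compared. The sample labels also name 10x Genomics and adipocytes, while their extraction text gives a Singleron chip for whole nuclei, and the general text of the series names subcutaneous depots first. The matrices hold UMI counts of 56980 genes.

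Endothelial cells hold each other through claudin and cadherin junctions and answer to VEGF, angiopoietin, Notch and BMP signals, which set how vessels sprout and whether they become arteries or veins. In fat, capillary endothelium is also the gate for lipid. Lipoprotein lipase made by adipocytes is carried to the capillary lumen by GPIHBP1, and the fatty acids it frees are taken up with help from the scavenger receptor CD36 and the binding protein FABP4.

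The members held 111424 UMIs in replicate 1 and 661806 in replicate 2, of 8466237 and 48068273 UMIs in all filtered nuclei. A member had a median of 1561 UMIs in replicate 1 and 1514 in replicate 2, against 2250 and 2816 in the other filtered nuclei. Members were thus shallower than the rest in both libraries. Replicate 1 stood apart from replicate 2 in its mitochondrial share, with a median of 6.32% of the UMIs of its members against 0.853%. The same gap was seen in the other nuclei, at 6.20% and 0.609%. Replicate 1 also had few members, and 1 of them was far deeper than the rest, with 10052 UMIs where the next had 3389. That nucleus held 9.02% of all member UMIs of replicate 1, while the deepest member of replicate 2 held 0.736%. It carried 22 of the 34 Plvap UMIs and 12 of the 22 Vwf UMIs of the replicate 1 members, so the levels of these genes in replicate 1 rest largely on it. The libraries shared 85 barcodes among called nuclei and 27 among filtered nuclei, and 0 members had a barcode that a member of the other library had. Scrublet, which scores a nucleus by its likeness to simulated pairs, called 1 doublet per library with its automatic threshold, and none was removed on that account. The median score of members was 0.0728 and 0.0552 in replicates 1 and 2, against 0.0813 and 0.0733 in the other nuclei.

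Members made up 2.19% of the filtered nuclei of replicate 1 (95% exact interval 1.68% to 2.80%) and 3.18% of those of replicate 2 (2.88% to 3.51%). The mean was 2.69% ± 0.703 (SD, n = 2). The intervals cover counting error alone. Keeping only members with at most 2 adipocyte UMIs lowered the mean to 1.64%.

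Of the filtered nuclei, 738 had at least 4 UMIs of the 9 endothelial genes. Among them 26 were over the lymphatic limit, 178 were at or over the adipocyte limit and 147 were over the limit for the other types, and 1 nucleus could fail more than 1 limit. The members had a median of 11 endothelial UMIs, from 4 to 115, and 64 members sat at exactly 4. Just outside, 26 nuclei of replicate 1 and 124 of replicate 2 had 3 endothelial UMIs and passed the other limits. On the adipocyte limit, 8 members had 8 or 9 UMIs, 14 nuclei otherwise inside had 10 or 11, and 103 members had 0. The edge of the group was thus crowded on the endothelial side and sparse on the adipocyte side.

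The 9 endothelial genes of the rule were above all other nuclei in both libraries, as the choice of members fixes. Levels are given in CPM, for which the sums of each library and class are scaled to equal totals. Cdh5, the adherens junction cadherin of endothelium, stood at 790 in replicate 1 and 556 in replicate 2, against 19.5 and 8.25 in all other nuclei. Flt1 and Kdr, the VEGF receptors, stood at 1499 and 1633 and at 341 and 521. Ptprb, a phosphatase that acts on the angiopoietin receptor, reached 1310 and 1428. All 5 marker genes of the label, with the adhesion molecule gene Pecam1 at 996 and 1000, were thus present in both libraries. The transcription factor gene Mecom stood at 2405 and 2052, and Egfl7 at 17.9 and 18.1, from 2 and 12 UMIs. The lymphatic genes of the rule were few in UMIs, with Prox1 at 0 and 10.6, Mmrn1 at 26.9 and 4.53, from 3 and 3 UMIs, and Ccl21a at 0 UMIs in both libraries.

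Aqp7, the glycerol channel that the rule lists among the adipocyte genes, went against its listing. Its level was 144 and 135 in members and 39.4 and 28.8 in adipocyte nuclei (at least 10 adipocyte UMIs and under 4 endothelial). Its level was thus higher in members than in adipocytes in both libraries, although the rule limits it. After thinning every nucleus to 1000 UMIs, 11.3% and 10.8% of members had an Aqp7 UMI, against 4.02% and 2.95% of adipocyte nuclei and 0.971% and 0% of macrophage nuclei. Without thinning the shares of members were 16.1% and 16.5%. Since the rule used Aqp7, test values for it are not given.

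Per nucleus, the data were sparse. After thinning to 1000 UMIs, Flt1 was seen in 71.0% of members of replicate 1 (exact interval 58.1% to 81.8%) and 65.0% of replicate 2 (60.1% to 69.8%), and Cdh5 in 48.4% and 35.7%. Macrophage nuclei had Flt1 in 6.80% and 4.85% and Cdh5 in 0% and 0.441%, with median depths of 1839 and 2375 UMIs before thinning. Unthinned, the shares of members were 80.6% and 76.1% for Flt1 and 56.5% and 47.8% for Cdh5. The rule counts UMIs of both genes, so the gap to macrophages is fixed by the choice of members, and a member without a UMI of a given gene is not shown to lack it.

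Against all other filtered nuclei, 1030 of the 18063 tested genes outside the rule were called higher in members and 1726 were called lower. A gene was called when edgeR's quasi-likelihood test on the sums per library gave it a Benjamini-Hochberg adjusted p below 0.05 and its log2 fold change reached 1 in either direction. These are 5.7% and 9.56% of the genes tested, and the counts below are read against them. Lower calls are given mostly as counts, since limits on adipocyte, progenitor, mesothelial and macrophage genes lower whatever goes with those genes. The few lower genes named below are under the same limits. The median log2 fold change over all genes was -0.09 with TMM scaling and 0.40 on raw library totals, so fold changes below are relative to TMM and lie lower than the ratios of levels. Because adipocyte nuclei held most UMIs of the other nuclei, 5076532 of 8354813 in replicate 1 and 26518366 of 47406467 in replicate 2, the lists of endothelial function are also given against the mean of macrophage, FAP and mesothelial nuclei, a comparison chosen after seeing the data. There, with the genes that gate mural cells also left out, 757 of 12545 genes were higher (6.03%) and 662 lower (5.28%), with a median log2 fold change of -0.03 over all genes. Against adipocyte nuclei alone 2822 genes were higher (22.5%) and 2308 lower (18.4%), with a median of -0.11. Counts moved with the settings: with at most 2 adipocyte UMIs per member, 316 genes were higher and 483 lower than in all other nuclei, and with a mitochondrial limit of 5%, which left 22 members in replicate 1, 491 and 472 were.

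The genes of largest fold change outside the rule were led by a long non-coding RNA. Gm12002 (ENSMUSG00000086584, chr11:12264489-12339534 of GRCm39, plus strand) stood at 933 and 964 CPM in members of replicates 1 and 2, against 6.46 and 11.4 in all other nuclei. Members and others were thus far apart in both libraries. Its log2 fold change was 6.21 (SE 0.32, adjusted p = 3.1e-78 in edgeR's quasi-likelihood test, higher in 2 of 2 libraries). After thinning, 37.1% and 42.2% of members had a Gm12002 UMI, against 0.211% and 0.526% of adipocyte nuclei. It lies across Cobl, which runs on the other strand, and whether counting used the strand is not stated, so their UMIs cannot be told apart. A second long non-coding RNA, Gm29007, followed at 162 and 242 CPM against 2.87 and 1.69, with a log2 fold change of 6.18 (SE 0.46). It overlaps other non-coding genes in the same way.

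The 20 genes of largest fold change, drawn from 536 that met the naming rule, had log2 fold changes from 4.88 to 6.21, and each was higher in 2 of 2 libraries. Several are capillary or junction genes. Btnl9, a butyrophilin-like surface protein, stood at 323 and 471 CPM against 5.63 and 5.76. Adgrl4, an adhesion receptor of endothelium, stood at 790 and 1123 against 17.1 and 12.1. Cldn5, the claudin of endothelial tight junctions, stood at 269 and 142 against 3.35 and 2.57. The log2 fold changes of these 3 genes were 5.66, 5.57 and 5.50. Robo4, a guidance receptor, and Emcn, a sialomucin of capillaries and veins, followed at 5.44 and 5.06. Car4, a carbonic anhydrase anchored in the capillary membrane, was at 5.42. The transcription factor genes among the 20 were Tcf15 (5.27), Dach1 (5.14), Zfp366 (5.13), Sox17 (4.99) and Sox18 (4.89). Cyp1a1, a target gene of the aryl hydrocarbon receptor, was at 126 and 112 CPM against 2.27 and 2.34, a log2 fold change of 5.16. The others were the lectin-like receptor gene Clec1a, Gpihbp1, Sema7a, the Notch ligand gene Dll4, Dipk2b and Ccm2l. Some of the 20 were higher still in the 24 nuclei of replicate 2 gated as lymphatic, described with no test. Cldn5 stood at 420 CPM there against 142 in members of that library, and Sox18 at 360 against 103. Ccm2l stood at 225 against 187 and Dll4 at 210 against 81.6. The rest of the 20 were lower there than in members. Replicate 1 had 0 such nuclei. Adjusted p in edgeR's quasi-likelihood test was 2.13e-16 or smaller for each of the 20 genes, with Sox17 (log2 fold change 4.99, 2 of 2 libraries) at that value.

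**Figure D1:**
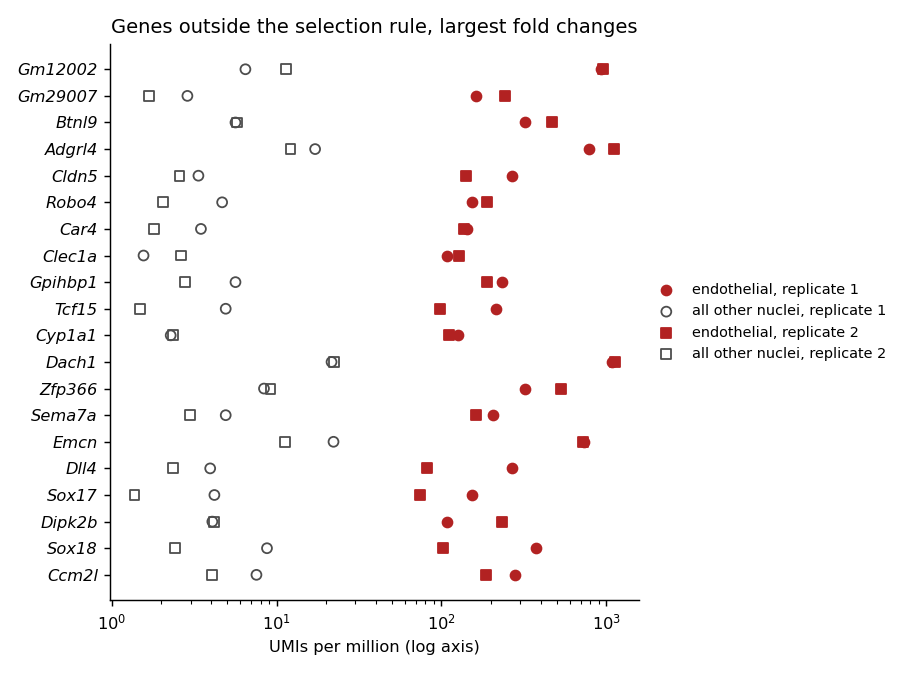
Levels in CPM (UMIs scaled by the total, log axis) of the 20 genes of largest log2 fold change outside the rule, in members (filled) and all other filtered nuclei (open) of replicate 1 (circles) and replicate 2 (squares). Every filled point lies to the right of both open points of its gene, for Gm12002 at 933 and 964 against 6.46 and 11.4.

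Promoter sequences were looked at because genes that are high together in endothelium are often described by motifs of ETS factors, of which several are listed below. The motifs CAGGAAG and CCGGAAG were searched on both strands in the RefSeq promoters of GRCm38.p6, each from 250 bases before to 50 after a gene's start. Of all 32851 windows, 20.9% held at least 1 of them. By gene, 28.9% of the 12964 tested genes with a promoter held 1, and 21.8% of 739 genes called higher. Of the 20 genes of largest fold change, 13 had a promoter in the table, and 4 of these held a motif. Their stretches follow, 5′ to 3′ on the gene's strand, with the motif in capitals. They are Btnl9 at chr11:49187090-49187209 (minus strand), Robo4 at chr9:37401852-37401971, Car4 at chr11:84957504-84957623 and Emcn at chr3:137340848-137340967 (all plus strand).
Btnl9: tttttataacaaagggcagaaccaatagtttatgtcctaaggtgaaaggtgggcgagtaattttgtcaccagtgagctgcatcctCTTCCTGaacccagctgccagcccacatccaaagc
Robo4: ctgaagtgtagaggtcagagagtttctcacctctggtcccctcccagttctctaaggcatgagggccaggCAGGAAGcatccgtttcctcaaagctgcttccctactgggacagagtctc
Car4: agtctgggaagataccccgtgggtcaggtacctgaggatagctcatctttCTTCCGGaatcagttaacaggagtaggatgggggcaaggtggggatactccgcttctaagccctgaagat
Emcn: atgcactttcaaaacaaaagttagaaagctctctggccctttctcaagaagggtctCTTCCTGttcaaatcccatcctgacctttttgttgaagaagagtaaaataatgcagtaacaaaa
Car4 carries the CCGGAAG letters on the other strand, Btnl9 and Emcn carry CAGGAAG on the other strand, and Robo4 carries CAGGAAG as written. The matches are a description of letters and say nothing of binding.

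Surface and junction genes shared by all endothelium were high as a group. Of 26 such genes, all 26 tested, 22 were called higher than in all other nuclei and 1 lower, with a median log2 fold change of 3.58 against -0.09 over all genes. Against macrophage, FAP and mesothelial nuclei 25 were higher and 0 lower, with a median of 3.89. Eng, the endoglin co-receptor of BMP signals, stood at 458 and 355 CPM against 18.7 and 12.9. Tek, the angiopoietin receptor TIE2, stood at 260 and 422 against 36.6 and 35.9. S1pr1, the receptor for sphingosine 1-phosphate, stood at 188 and 239 against 9.57 and 5.32. All 3 genes were apart from the others in both libraries, with log2 fold changes of 4.20, 2.76 and 4.51. Calcrl and Ramp2, which together form the adrenomedullin receptor, had log2 fold changes of 3.22 and 3.06. Adgrf5 had 3.94. Plvap, of the diaphragms of fenestrae and caveolae, stood at 305 and 118 against 22.1 and 5.27, a log2 fold change of 3.64. Vwf, the clotting factor carrier, had 3.52. Without the deepest nucleus of replicate 1, chosen for this after seeing the data, Plvap and Vwf had 3.12 and 3.17 and stayed called higher.

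A few surface genes were not called higher in members than in all other nuclei. Ptprm, a receptor phosphatase at cell contacts and the most abundant gene of the list, stood at 1678 and 1851 CPM in members and 661 and 817 in adipocytes. Its level in all others was 567 and 687. The log2 fold change of 0.97 against them missed the fold limit alone (adjusted p = 0.00212 in edgeR's quasi-likelihood test). It was 3.23 against macrophage, FAP and mesothelial nuclei (adjusted p = 8.96e-25 in edgeR's quasi-likelihood test, higher in 2 of 2 libraries). Nos3, the endothelial nitric oxide synthase, stood at 98.7 and 130 in members and 53.0 and 81.3 in adipocytes, with 0.47 and 2.63 in the same 2 comparisons. Cd34, shared with progenitors, stood at 98.7 and 81.6 against 93.1 and 56.5 in all others, with a log2 fold change of -0.13 against them and -0.79 against the 3 other types, and missed both tests. Mcam was the 1 gene called lower, at -1.11 against all others, and it was called higher at 1.51 against macrophage, FAP and mesothelial nuclei. The lower call was lost with DESeq2 (-1.18), without TMM (-0.57), with the 5% mitochondrial limit (-1.08), with at least 6 endothelial UMIs (-0.99) and with at most 2 adipocyte UMIs (-1.72), and Mcam was at 0.79 at equal weight of 4 types. For Ptprm, Nos3 and Mcam the call thus differed with the nuclei compared, and for Mcam with other settings too.

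**Figure D2:**
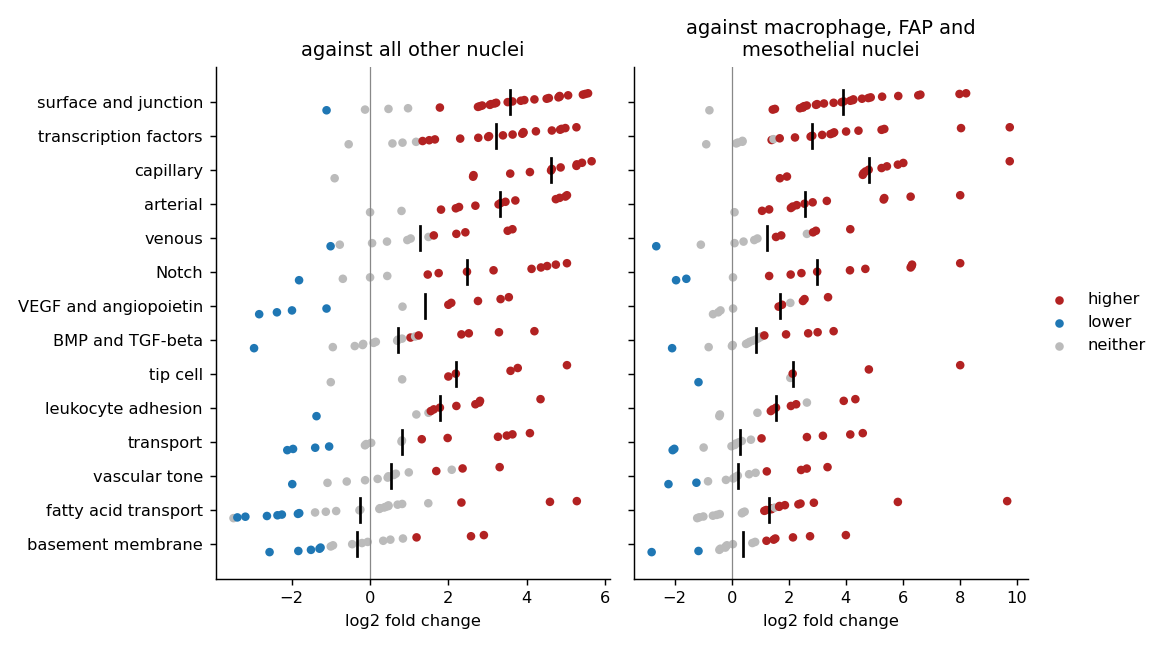
Log2 fold change of each tested gene of 14 lists in members against all other filtered nuclei (left) and against the mean of macrophage, FAP and mesothelial nuclei (right). Points are genes called higher (red), lower (blue) or neither (grey), and black bars are medians; the capillary bar lies at 4.64 on the left and the fatty acid bar moves from -0.25 on the left to 1.30 on the right.

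Transcription factors of the endothelial programme were also high. Of 23 genes 22 were tested, and 18 were called higher and 0 lower, with a median log2 fold change of 3.22. Against macrophage, FAP and mesothelial nuclei 15 of 21 were higher and 0 lower, with a median of 2.82. Fli1, an ETS factor and the most abundant gene of the list, stood at 583 and 925 CPM against 36.3 and 35.2. Its relative Erg stood at 108 and 326 against 14 and 15.8. Both ETS genes were higher than the others in both libraries, with log2 fold changes of 3.89 and 3.40, although Erg had 12 UMIs in replicate 1. Ets1, Elk3 and Ets2 had 3.92, 3.64 and 3.04. Among the SOX factors of the F group, Sox18 stood at 377 and 103 and Sox17 at 153 and 74.0, higher in replicate 1 than in replicate 2. Sox7 joined them with a log2 fold change of 4.86, from 9 and 25 UMIs. Meox2, a homeobox factor, had 4.65 and Mef2c had 2.77. Epas1, the hypoxia factor HIF-2α, had 1.34 against all others and 3.17 against macrophage, FAP and mesothelial nuclei, and the first of these calls was lost with the 5% mitochondrial limit (1.25) and with at most 2 adipocyte UMIs (0.99). Foxo1, at 224 and 174 against 129 and 262, was called in neither direction.

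Genes of fatty acid handling were split, and some of them had like levels in members and adipocytes. Of 25 genes, all tested, 3 were called higher than in all other nuclei and 7 lower, with a median log2 fold change of -0.25. Against macrophage, FAP and mesothelial nuclei, 12 of 22 were higher and 0 lower, with a median of 1.30. Against adipocytes 5 of 22 were higher and 10 lower, where 22.5% and 18.4% of all tested genes were. Members were limited in adipocyte UMIs and adipocyte nuclei were chosen by them. The lower count is thus fixed in part by that choice and is not read as a trait of the list. Gpihbp1, which binds lipoprotein lipase at the capillary surface, was set apart from adipocytes and from the 3 other types. It stood at 233 and 189 CPM in members and at 3.55 and 1.09 in adipocytes, with a log2 fold change of 5.28 against all others (adjusted p = 2.05e-32 in edgeR's quasi-likelihood test, higher in 2 of 2 libraries). Its log2 fold change was 6.29 against adipocytes and 5.82 against the 3 other types. After thinning, 17.7% and 13.6% of members had a Gpihbp1 UMI, against 0.282% and 0.168% of adipocytes, and 25.8% and 20.1% of members did without thinning. Aplnr, the apelin receptor, and Acvrl1, the BMP9 receptor ALK1, were the other 2 genes called higher, at 4.60 and 2.34.

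Fabp4 was among the genes not called against adipocytes. It stood at 4640 and 2434 CPM in members, 4566 and 2090 in adipocytes, 1648 and 719 in macrophages, 1126 and 622 in FAPs and 2415 and 1192 in mesothelial nuclei. By level members and adipocytes were thus close, and both were above the other types in both libraries. By share of thinned nuclei members were below adipocytes in both libraries, since 96.1% and 80.7% of adipocytes had a Fabp4 UMI. Members were also not above all of the other types in replicate 1. A Fabp4 UMI was seen there in 80.6% of members, 84.5% of mesothelial nuclei and 76.7% of macrophages. In replicate 2 the shares were 75.1%, 58.2% and 40.5%. The log2 fold change was -0.41 against adipocytes, which missed the test, and 1.42 (SE 0.21, adjusted p = 2.95e-08 in edgeR's quasi-likelihood test, higher in 2 of 2 libraries) against the 3 other types. Cd36 stood at 2289 and 2469 in members, 1817 and 1247 in adipocytes, 1480 and 1257 in macrophages and 205 and 162 in FAPs. By level members were the highest of these types in both libraries for Cd36, with log2 fold changes of 0.16 against adipocytes, not called, and 2.33 against the 3 other types. By share of thinned nuclei they were not: a Cd36 UMI was seen in 64.5% and 72.5% of members (72.6% and 78.7% unthinned), 77.9% and 64.3% of adipocytes and 66.0% and 58.1% of macrophages, so members were highest in replicate 2 alone. Mgll, the monoglyceride lipase, stood at 574 and 753 in members and 532 and 424 in adipocytes, against 136 and 113 in FAPs. Scarb1, the HDL receptor SR-B1, stood at 305 and 402, against 197 and 242 in adipocytes and 21.1 and 38.1 in FAPs. Cav1, the coat protein of caveolae, stood at 763 and 677 in members and 852 and 547 in adipocytes. Mgll, Scarb1 and Cav1 were called in neither direction against adipocytes, and were called higher than the 3 other types at 2.41, 2.88 and 1.66.

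Pparg and Lpl lay on the adipocyte side. Pparg, the nuclear receptor of fat storage, stood at 592 and 1529 CPM in members and 3973 and 4519 in adipocytes, with a log2 fold change of -2.59 between them. It was nonetheless called higher in members than in the 3 other types, at 1.67. Lpl, the lipase that Gpihbp1 carries, stood at 1014 and 496 in members, 5397 and 2476 in adipocytes and between 586 and 1661 in macrophages, FAPs and mesothelial nuclei. Against those 3 types Lpl had a log2 fold change of -0.53 and missed the test. Members and those types were all held to under 10 adipocyte UMIs of the rule. Of this pair the carrier was thus an endothelial transcript here, while Lpl was not called against these 3 types.

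**Figure D3:**
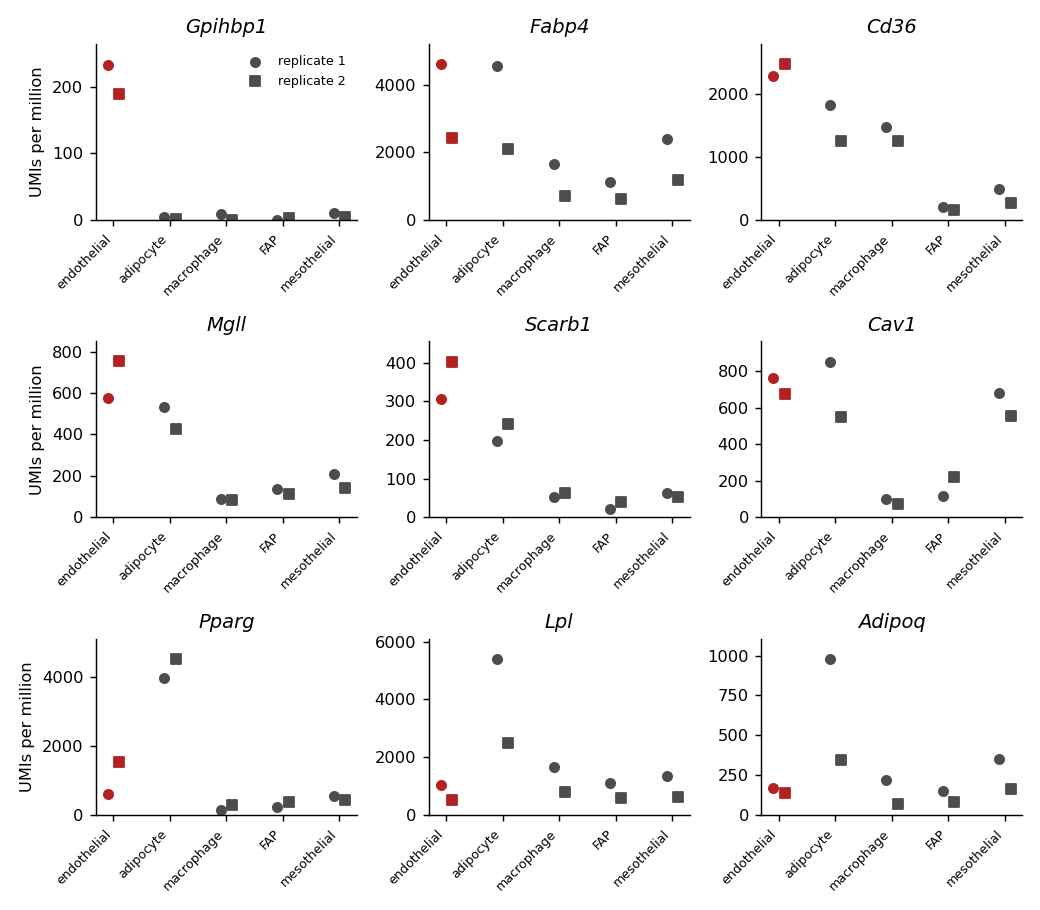
Levels in CPM of 9 genes in members (red) and in adipocyte, macrophage, FAP and mesothelial nuclei (grey) of replicate 1 (circles) and replicate 2 (squares); axes start at 0. Gpihbp1 is high in members alone, at 233 and 189, and Fabp4 and Cav1 in members are nearer to adipocytes than to FAPs in both libraries.

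Adipocyte transcripts were present in members, at levels below those of adipocytes. Of 14 adipocyte genes outside the rule, 0 were called higher and 14 lower than in all other nuclei. Against macrophage, FAP and mesothelial nuclei, 0 of 14 were called higher and 0 lower by edgeR's quasi-likelihood test, with a median log2 fold change of 0.08. At an unadjusted p under 0.05 there were 2, Adipor2 and Lpl, and DESeq2 called 0 of the 14. Their summed level was 11360 and 8935 CPM in members, against 62300 and 54650 in adipocytes. In macrophages it was 10810 and 6128, in FAPs 8526 and 6965 and in mesothelial nuclei 16790 and 10150. Scd1, the fatty acid desaturase, was the most abundant of them in members, none of the 14 was at 0, and a member held a median of 15 and 12 such UMIs. Adipoq, the adiponectin gene, was seen in 14.5% and 10.5% of thinned members (19.4% and 17.2% unthinned) and in 19.4% and 7.49% of thinned macrophages, so its shares in members and macrophages overlapped.

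The fatty acid genes were therefore also looked at by the number of adipocyte UMIs of the rule in each member, a split chosen after seeing the data. The rule counted and limited these UMIs, so the levels are given as description and no conclusion is drawn from them. In replicate 2, Cd36 stood at 2166 CPM in 92 members with 0 such UMIs, 2554 in 174 members with 1 or 2 and 2544 in 123 members with 3 to 9. Fabp4 stood at 1878, 2419 and 2794 in the same groups. Ghr and Scd1, which are adipocyte genes, stood at 1288, 1803 and 2394 and at 1130, 1367 and 2222. Each of these genes stood higher in the last group than in the first in that library. Mgll stood at 712, 761 and 766, and Scarb1 at 504, 416 and 321. Replicate 1 had small groups of 11, 20 and 31 nuclei. There Cd36 stood at 1171, 1308 and 3028 and Fabp4 at 2278, 2521 and 6227, while Ghr stood at 1497, 1277 and 1298 and Scd1 at 2603, 2011 and 3554. Mgll rose from 130 over 319 to 803, from 2, 10 and 52 UMIs, and Scarb1 stood at 456, 223 and 309. Other adipocyte genes rose from the first group to the last in both libraries. Cfd stood at 716, 957 and 2117 in replicate 1 and 532, 687 and 1201 in replicate 2, Car3 at 586, 830 and 1298 and at 396, 680 and 995, Adipoq at 0, 95.7 and 247 and at 93.5, 108 and 207, and Lpl at 325, 1085 and 1143 and at 417, 450 and 603. In replicate 1 some endothelial and shared genes rose as well, with Ptprm at 911, 1340 and 2024 and Cav1 at 260, 511 and 1004. Cav1 had 4, 16 and 65 UMIs there. Btnl9 stood at 65.1, 31.9 and 525, from 1, 1 and 34 UMIs. Gpihbp1 stood at 195, 319 and 201 and Cavin2 at 1041, 447 and 834, so genes of this kind went both ways. When only members with at most 2 such UMIs were kept, the log2 fold change of Cd36 against all other nuclei went from 0.36 to -0.28 and that of Mgll from 0.24 to -0.45, and neither was called at either setting. The part of adipocyte RNA in these levels was not tested.

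Receptors and ligands of vessel growth were mixed. Of 10 tested genes outside the rule 5 were called higher than in all other nuclei and 4 lower, and against macrophage, FAP and mesothelial nuclei 5 were higher and 0 lower, with medians of 1.42 and 1.70. Flt4, the VEGF-C receptor, stood at 117 and 72.5 CPM against 2.87 and 7.47 in all others, and its ligand gene Vegfc at 188 and 166 against 10.2 and 13.8. Both were higher in members in both libraries, with log2 fold changes of 3.55 and 3.34. Nrp2 had 2.08, and Nrp1, a co-receptor of VEGF, stood at 449 and 751 with 0.83 against all others, under the fold limit, and 1.76 against the 3 other types. Angpt2, the angiopoietin that endothelium makes, had 2.00 from 4 and 18 UMIs, and its call was lost with DESeq2, when genes of low counts were kept in (1.82), with the 5% mitochondrial limit (2.36), with at most 2 adipocyte UMIs (1.56) and against the 3 other types (2.05). Other ligand genes were lower in members than in adipocytes: Vegfa stood at 188 and 133 against 970 and 922 in adipocytes, and Angpt1 at 44.9 and 77.1 against 134 and 386. Ligand genes thus lay on both sides, with Vegfc higher in members and Vegfa and Angpt1 higher in adipocytes.

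Most of the Notch genes tested were higher in members, and a few were lower. Of 13 tested genes 9 were called higher than in all other nuclei and 1 lower, with a median log2 fold change of 2.48, and 10 were higher and 2 lower than in macrophage, FAP and mesothelial nuclei, with a median of 2.99. Among receptors, Notch4 stood at 135 and 112 CPM against 4.19 and 4.07, and Notch1 at 180 and 128 against 47.6 and 31.5. Among ligands, Dll4 stood at 269 and 81.6 against 3.95 and 2.34, Jag2 at 117 and 103 against 5.86 and 2.26, and Dll1 at 80.8 and 51.4 against 6.58 and 3.99. All 5 were higher in both libraries, with log2 fold changes of 4.37, 1.48, 5.03, 4.53 and 3.16. The target genes Hey1, Nrarp and Hes1 had 4.75, 4.13 and 2.48. Notch1 was no longer called with the 5% mitochondrial limit (1.54) or with at most 2 adipocyte UMIs (1.09), nor Dll1 (2.60) and Hes1 (2.06) with the latter. Notch2 and Rbpj, the DNA-binding partner of Notch and the most abundant gene of the list, were the 2 called lower than the 3 other types, at -1.96 and -1.59. Rbpj stood at 144 and 219 in members and 972 and 2618 in macrophages. Jag1 was at 0.00 against all others and 1.31 against the 3 other types. Notch3 had 1.75, a call lost with the 5% mitochondrial limit (1.79), with at least 6 endothelial UMIs (1.42) and with at most 2 adipocyte UMIs (0.88), and its level of 98.7 and 69.5 in members was under that of mural nuclei, at 1761 and 1258, which were chosen in part by their Notch3 UMIs. The 3 other types were limited in such UMIs, so the higher call of Notch3 against them is fixed in part by that limit.

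The BMP and TGF-beta list was mixed. Of 17 tested genes 6 were called higher and 1 lower than in all other nuclei, with a median of 0.71, and against macrophage, FAP and mesothelial nuclei 5 were higher and 1 lower, with a median of 0.83. Bmp6, a BMP ligand, stood at 323 and 464 CPM against 25.3 and 31.4, and the BMP target gene Id1 at 242 and 142 against 30.4 and 17.0. Members were apart in both libraries for both, with log2 fold changes of 3.29 and 2.52. Eng and Acvrl1, the receptor pair, are given above. Smad1 and Ltbp4 had 1.03 and 1.24 against all others, and neither was called against the 3 other types, at 0.97 and 0.50, or with the 5% mitochondrial limit or at most 2 adipocyte UMIs, nor was Smad1 with DESeq2 (0.98) or with genes of low counts kept in (0.86).

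Markers of the vessel segments differed in how far they set members apart. Capillary genes led: of 12 tested 11 were higher and 0 lower than in all other nuclei, with a median of 4.64, and against macrophage, FAP and mesothelial nuclei all 11 tested were higher, with a median of 4.80. Arterial genes followed with 12 of 14 higher, 0 lower and a median of 3.31, and 12 of 13 against the 3 other types, with a median of 2.55. Venous genes had 5 of 12 higher and 1 lower, with a median of 1.27, and again 5 higher and 1 lower against the 3 other types, with a median of 1.22. Slc28a2, a nucleoside transporter and the most abundant capillary gene, stood at 350 and 506 CPM against 14.7 and 11. Cd300lg stood at 386 and 334 against 13.3 and 6.10, and the water channel gene Aqp1 at 314 and 468 against 34.5 and 9.30. These 3 had log2 fold changes of 4.63, 4.87 and 4.08. Timp4 and Sgk1 had 2.63 and 2.65, and Rgcc was the 1 capillary gene not called against all others, at -0.90, while it had 1.93 against the 3 other types. Among arterial genes, Sema3g stood at 215 and 172 against 8.14 and 3.06, Efnb2 at 108 and 186 against 16.5 and 8.65 and Cxcl12 at 305 and 200 against 38.5 and 19.2, with 4.84, 3.28 and 2.69. Bmx and the connexin gene Gja5 had 3.46 and 2.27. Among venous genes, Ephb4 had 2.44, Vcam1 2.21 and Selp 1.63, and Nr2f2, the venous fate factor, had 0.05 and missed the test. Ackr1, of venules, had 3 and 2 UMIs. Selp was no longer called without the deepest nucleus of replicate 1, at 1.46, or under most other settings.

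Members also differed among themselves along these lists. Counting a nucleus for a list when it held at least 3 of its UMIs, 34 of 62 members of replicate 1 (54.8%) and 229 of 389 of replicate 2 (58.9%) counted as capillary. Arterial nuclei were 26 and 106 (41.9% and 27.2%), and venous nuclei 11 and 72 (17.7% and 18.5%). The limit sat in a crowded range, since 43 members had exactly 3 capillary UMIs and 35 had 2, while 48 and 73 had 3 and 2 arterial UMIs. The classes overlapped: 17 and 69 nuclei were both arterial and capillary, 65.4% and 65.1% of the arterial and 50% and 30.1% of the capillary ones. A further 17 and 96 members reached 3 UMIs of none of the 3 lists. The median depth of capillary nuclei was 1610 and 1554 UMIs and that of arterial nuclei 1618 and 1862, so arterial nuclei were somewhat deeper in replicate 2.

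Nuclei that were capillary and not arterial (17 and 160) and nuclei that were arterial and not capillary (9 and 37) differed in genes outside these lists, given here as description with no test. Cd36 stood at 3381 and 3433 CPM in the capillary nuclei and 1325 and 768 in the arterial ones. Fabp4 stood at 6487 and 2923 against 2777 and 1409, Mgll at 932 and 1028 against 505 and 427, and Scarb1 at 414 and 467 against 126 and 128. Cav1 stood at 1242 and 858 against 947 and 569. These 5 fatty acid genes were thus higher in capillary nuclei in both libraries. Pparg was not, at 587 and 2088 against 821 and 598, so it was lower in capillary nuclei of replicate 1, from 17 and 13 UMIs, and higher in replicate 2. Emcn stood at 1311 and 854 against 189 and 199, Gm12002 at 1518 and 1459 against 189 and 299, and Dach1 at 1242 and 1424 against 505 and 598. The levels of these 3 genes were thus also higher in capillary nuclei in both libraries. Of the rule genes, Kdr stood at 587 and 601 in capillary and 126 and 228 in arterial nuclei, while Mecom went the other way, at 1691 and 1471 against 1957 and 3258. Vwf was high in arterial nuclei of replicate 2, at 441 against 63.3, and not in replicate 1, at 126 against 207, where counts were few. Aqp7 stood at 104 and 186 in capillary and 63.1 and 28.5 in arterial nuclei, from 3 and 47 and from 1 and 2 UMIs. Members with under 3 UMIs of each list had Cd36 at 456 and 1337, and their Scd1 level, at 4191 and 2295, was above that of both classes, which stood at 3140 and 1689 and at 2461 and 1096.

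**Figure D4:**
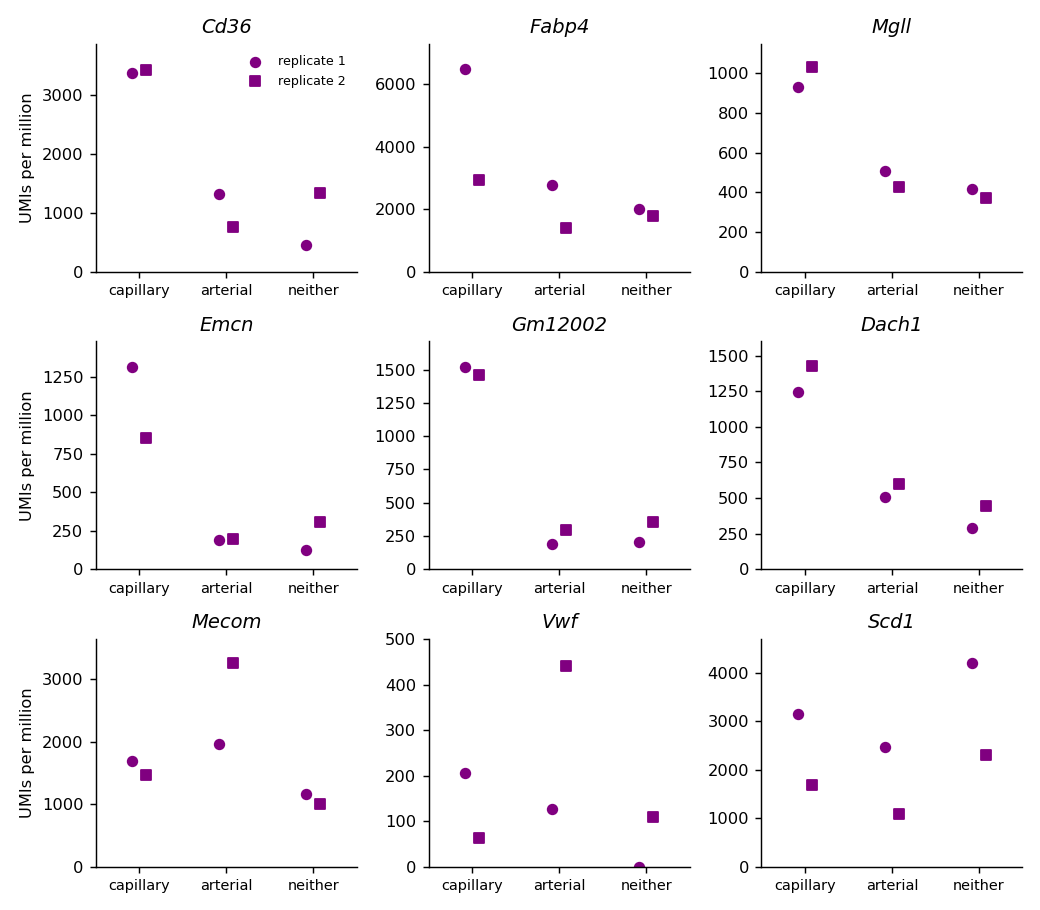
Levels in CPM of 9 genes in members with at least 3 capillary and under 3 arterial UMIs, in members with at least 3 arterial and under 3 capillary UMIs, and in members under 3 on the arterial, capillary and venous lists (neither), of replicate 1 (circles) and replicate 2 (squares); axes start at 0. Cd36, Fabp4, Mgll, Emcn, Gm12002 and Dach1 are highest in capillary nuclei in both libraries, and Scd1 is highest in neither.

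Sprouting genes were few in UMIs. Of 7 tested tip cell genes 5 were higher and 0 lower than in all other nuclei, with a median of 2.19, and of 5 tested against macrophage, FAP and mesothelial nuclei 3 were higher and 1 lower. Apart from Dll4, these were Esm1 (3.77, from 4 and 7 UMIs), Cxcr4 (3.59), Unc5b (2.19) and Angpt2 (2.00). The call of Esm1 was lost with the 5% mitochondrial limit (4.18) and with at most 2 adipocyte UMIs (3.97), with no smaller fold, and DESeq2 gave it no adjusted p. Unc5b was not called with the 5% limit (2.17), and Angpt2 is given above. Genes of the cell cycle were near 0: Top2a, the most abundant of 8, had 3 and 6 UMIs, Ccnb1 and Ccna2 had 0, the list summed to 35.9 and 39.3 CPM, and 0 of 3 tested genes were called in either direction by edgeR and 0 at an unadjusted p under 0.05, while DESeq2 gave an adjusted p to 0 of them.

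Genes by which vessels hold leukocytes were mostly higher. Of 11 tested 8 were higher and 1 lower than in all other nuclei, with a median of 1.79, and 7 were higher and 0 lower than in the 3 other types. Jam2, a junctional adhesion molecule, stood at 260 and 335 CPM against 11.5 and 9.81, a log2 fold change of 4.36, and Jam3 and F11r of the same family had 2.79 and 1.55. Podxl had 1.79 and Icam2 2.81, the latter from 4 and 19 UMIs. The inducible selectin gene Sele had 2 and 1 UMIs.

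Genes of transport across the vessel wall divided. Of 15 tested 6 were higher and 4 lower than in all other nuclei, with a median of 0.80, and 5 of 14 were higher and 2 lower against the 3 other types, with a median of 0.30. The efflux pump genes Abcg2 and Abcb1a stood at 206 and 308 and at 135 and 187 CPM, against 17.5 and 15.9 and against 13.4 and 11.4. Both were apart in both libraries, with 3.49 and 3.27. Slco2a1, the prostaglandin transporter, had 1.98, and its call was lost with the 5% mitochondrial limit (1.79) and with at most 2 adipocyte UMIs (1.88). Igf1r had 1.32, but was not called against the 3 other types (0.35), at equal weight of 4 types (0.96), with the 5% mitochondrial limit (1.61) or with at most 2 adipocyte UMIs (1.13). Insr stood at 269 and 349 in members and 494 and 569 in adipocytes. The blood-brain barrier transporter gene Mfsd2a had 2 and 1 UMIs.

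Of 14 genes of vascular tone, all tested, 3 were higher and 1 lower than in all other nuclei, with a median of 0.54, and 4 of 13 were higher and 2 lower against the 3 other types, with a median of 0.21. The 3 were Edn1, the endothelin precursor (2.37), Ace, the angiotensin-converting enzyme (1.69), and Adora2a, an adenosine receptor (3.31). Ace was not called against the 3 other types (0.61). With at most 2 adipocyte UMIs Edn1 (2.37), Ace (1.52) and Adora2a (2.82) missed the adjusted p, and with the 5% mitochondrial limit so did Edn1 (2.77). Of 16 basement membrane genes 3 were higher and 5 lower, with a median of -0.33, and 6 were higher and 2 lower against the 3 other types, with a median of 0.38. Itga1, a collagen and laminin receptor, stood at 251 and 407 CPM against 39.7 and 39.5, and Lama5 at 117 and 99.7 against 14.7 and 7.74. Members were higher in both libraries for both, with 2.58 and 2.91, and Hspg2, the perlecan gene, had 1.19. Hspg2 was not called with the 5% mitochondrial limit (1.27), and neither it (0.73) nor Lama5 (2.40) with at most 2 adipocyte UMIs. The collagen IV genes Col4a1 and Col4a2 were at -0.06 and -0.20 against all others, not called, and at 1.21 and 1.53 against the 3 other types, called higher. Adipocytes carried them at 298 and 223 and at 277 and 285 CPM, near the 359 and 314 and the 359 and 277 of members.

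Other named calls against all other nuclei also depended on the limit of adipocyte UMIs. With at most 2 of them, which left 31 members in replicate 1, Ets2 (2.38), Acvrl1 (1.95), Flt4 (2.5), Nrp2 (1.47), Id1 (1.92), Cxcl12 (2.01), Ephb4 (1.77), Timp4 (2.22), F11r (1.51) and Podxl (1.66) kept log2 fold changes of at least 1 and missed the adjusted p in edgeR's quasi-likelihood test. F11r (1.68) also missed it with the 5% mitochondrial limit.

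Markers of progenitors, macrophages and mesothelium were far below their levels in those types. Of 11 progenitor genes outside the rule 0 were higher and 6 lower than in all other nuclei, and their sum was 1759 and 1067 CPM against 19110 and 10240 in FAP nuclei, with Dcn the most abundant and none at 0. Of 10 macrophage genes 0 were higher and 4 lower, with a sum of 610 and 762 against 17240 and 16870 in macrophage nuclei. Mertk was the most abundant of these and Cd163 had 0 UMIs in replicate 1. Of 10 mesothelial genes 0 were higher and 3 lower, with a sum of 135 and 190 against 2559 and 2493 in mesothelial nuclei. Muc16 led that list, and Krt7, Krt18, Krt8, Bnc1 and Cdh1 had 0 UMIs in replicate 1. Each of these 3 sums was thus a small part of that in the type itself. Against adipocytes, 8 of 11 progenitor, 8 of 10 macrophage and 3 of 9 mesothelial genes were called higher in members, where 22.5% of all tested genes were. Adipocyte nuclei had the same limit of at most 1 UMI of the rule's genes for these types. They were deeper, with medians of 2953 and 5033 UMIs against 1561 and 1514 in members. Comparisons of these lists with adipocytes are thus fixed in part by that limit and are not read as a trait of members. The progenitor sum of members was also above that of macrophages, at 702 and 647, and of adipocytes, at 549 and 271. A member held a median of 1 and 1 progenitor UMIs and 0 and 0 UMIs of the macrophage and mesothelial lists. Of 10 lymphocyte genes 4 were tested and 0 called in either direction by edgeR (1, Skap1, at an unadjusted p under 0.05) or by DESeq2, which gave 3 of them an adjusted p, with a sum of 233 and 171, Skap1 the most abundant and Nkg7 and Gzma at 0. Of 5 red cell genes 0 were called by edgeR, 0 at an unadjusted p under 0.05 and 0 by DESeq2, which gave 1 of them an adjusted p, with a sum of 35.9 and 106, led by Hbb-bs. Of 8 tested lymphatic genes outside the rule 2 were higher, Flt4 and Nrp2, which blood endothelium also carries, and 1 lower, and against the 3 other types the same 2 were higher and 2 lower. Their sum was 556 and 520, Nrp2 was the most abundant and Ccl21b had 0 UMIs.

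Mural cells, the smooth muscle and pericytes of the vessel wall, were too few to test, with 13 nuclei in replicate 1 and 101 in replicate 2, where at least 20 in each library had been required. The 14 mural genes summed to 458 and 351 CPM in members. They include the 8 genes by which mural nuclei were chosen, so their sum in mural nuclei, 12280 and 7314 with 9604 and 6122 from those 8, is fixed in large part by that choice. Of 13 tested 1 was higher, Notch3, and 1 lower than in all other nuclei, with a median of 0.38, and Higd1b had 0 UMIs in members. Counts against adipocytes and the 3 other types are not given for this list, since those nuclei were limited to under 4 UMIs of the 8 genes and members were not. The 26 surface and junction genes summed to 9585 and 10090 in members and 2721 and 1398 in mural nuclei. Within mural nuclei Adgrf5 stood at 680 and 327 and Emcn at 200 and 56.1 CPM, under the 835 and 1440 and the 736 and 727 of members. Members were thus above mural nuclei in both libraries on the surface list, described here with no test.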

How the data were processed

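The deposited matrices hold counts, as whole UMIs per gene and called nucleus, which the authors made with CeleScope on GRCm39 with no normalization; the version and annotation are not stated. The members and the gene lists were chosen with earlier results of these data known. The quality limits were 500 genes and 1000 UMIs, both to be exceeded, and a mitochondrial share below 15%. Members were taken by the UMI rule in the opening. UMIs were summed per library and class. Members and all other nuclei gave 4 sums, fitted in edgeR 4.0.16 (TMM, filterByExpr, quasi-likelihood test, library as block), which leaves 1 residual degree of freedom. Members were compared with adipocyte, macrophage, FAP and mesothelial nuclei, gated on the rule's genes with under 4 UMIs of 8 mural genes, in 1 joint fit with the same block. DESeq2 1.42.0, Scrublet scores from scanpy 1.11.5 and other limits served as alternatives.

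Genes were named from the lists when members held at least 10 UMIs, together with the 20 called genes of largest fold change outside the rule with at least 10 UMIs in each library; genes under 10 UMIs are named for their low counts alone. Shares of nuclei with a UMI were taken after thinning to 1000 UMIs (numpy 2.4.6), with exact Clopper-Pearson intervals (scipy 1.17.1). Positions are from GENCODE vM39 on GRCm39, where all 316 identifiers matched, and promoters from RefSeq on GRCm38.p6. Figures were drawn with matplotlib 3.10.9.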

Additional observations from a re-analysis of the deposited data

How the results depend on the processing

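Each library is 1 mouse, and only 62 members came from replicate 1, so small differences in weakly counted genes could not be resolved. Counts without 1 library have no residual degree of freedom and so no value, and the comparison with mural nuclei and its alternatives were not run. Esm1 and Ackr1 have no DESeq2 value, since DESeq2 gave them no adjusted p. The mean share of members ranged from 2.19% to 3.18% with either library left out, and was 1.64% with at most 2 adipocyte UMIs, under which replicate 1 kept 31 members. Each log2 fold change of a named gene called higher kept its direction under every alternative run, and 67 values of named genes fell short of a call, mostly with at most 2 adipocyte UMIs or a mitochondrial limit of 5%.

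Genes higher than all other nuclei numbered 1030, and under other settings their number was 1863 on library totals without TMM, 491 with the 5% limit and 316 with at most 2 adipocyte UMIs; without the replicate block it was 1544. Lower genes numbered 1726, and 1082 with DESeq2, which gave 8065 of 18087 genes no adjusted p, 858 without TMM, 472 with the 5% limit, 483 with at most 2 adipocyte UMIs, 589 against 4 gated types at equal weight and 662 against macrophage, FAP and mesothelial nuclei. Genes lower than in adipocytes numbered 2308, and 1294 with DESeq2 and 1036 without TMM. The higher count against adipocytes stayed within 1.5 times of 2822. Whether the same genes made up these counts, and the causes, were not tested.

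Log2 fold changes against all other nuclei changed sign as follows, and the cause was not tested. Without TMM: Cd34 0.39, Fabp4 0.30, Cav1 0.27, Col4a1 0.47 and Col4a2 0.31. With at least 6 endothelial UMIs: Cd34 0.0266, Cav1 0.0323, Col4a1 0.12 and Col4a2 0.016. With at most 2 adipocyte UMIs: Cd36 -0.28, Mgll -0.45, Jag1 -0.64 and Nr2f2 -0.68. At equal weight of 4 types: Mcam 0.79, Cd34 0.0134, Fabp4 0.96, Fabp5 1.11, Cav1 1.13, Pparg 0.61, Rgcc 1.16, Col4a1 0.88 and Col4a2 1.05. Against macrophage, FAP and mesothelial nuclei: Mcam 1.51, Fabp4 1.42, Fabp5 1.86, Cav1 1.66, Pparg 1.67, Rgcc 1.93, Col4a1 1.21 and Col4a2 1.53. Jag1 was -0.00381 with DESeq2, -0.17 without a filter on low counts, -0.0423 without the replicate block and -0.0284 with the highest doublet scores removed. Nr2f2 was -0.13 without the filter, -0.0751 with the 5% limit, -0.0664 with those scores removed and -0.0338 without the deepest nucleus of replicate 1. Leaving that nucleus out and comparing with the 3 gated types were chosen after seeing the data.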
